A study of Mus musculus with 2 samples.

Results

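The 7 genes described here govern where lymphocytes settle and when they leave a tissue, and their levels were read in Tregs (regulatory T cells) of the spleen and of the BLM-injured lung. They were chosen by symbol and are Ccr7, S1pr1, S1pr4, Klf2, Gpr183, Cxcr5 and Cd69, 7 of the 24346 gene symbols listed for each tissue. The cells came from Foxp3-DTR-GFP (FDG) mice of 10 to 16 weeks of age, in which GFP is made from the endogenous Foxp3 locus, so that GFP+CD4+ cells are Tregs. Every mouse had received 50 μg of bleomycin (BLM), a drug that injures the lung and leads to fibrosis, through the trachea. Spleen and lung were taken on day 15, and sorted GFP+CD4+ cells of 3 mice made up the single library of each tissue. No library from mice without BLM was analysed here, so each value below describes a tissue after injury and no value describes the injury itself.

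Circulating T cells enter lymph nodes with the help of the chemokine receptor CCR7, search them, and leave again along a gradient of sphingosine 1-phosphate (S1P), which is high in blood and lymph and low inside tissues. KLF2 is the transcription factor that keeps S1pr1 on in resting T cells. CD69, which appears early after activation, binds the S1P1 receptor and removes it from the cell surface, so that a cell stays where it is. Within lymphoid organs CXCR5 leads cells into B cell follicles, and GPR183 (EBI2) guides them by oxysterols.

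The unit of every level is FPKM, which corrects a gene's fragments for exon length and for the number mapped in the library, so that levels of different genes can be compared within a library. The ratio of a gene is its lung FPKM divided by its spleen FPKM after values under 0.1 FPKM had been set to 0.1. Since each tissue has 1 library, no p-value can be given and no difference could be checked in a replicate. Reads behind each FPKM were estimated from the value of 1 read, and their sums were 9646969 in spleen and 12631242 in lung. The 95% intervals below come from these reads and cover counting error only, since PCR copies of a molecule are counted separately and variation between mice is not measured. The sorted cells carried the T cell genes Cd4 (195 FPKM in spleen and 179 in lung) and Cd3e (513 and 369). Foxp3 was at 18.7 and 41.8 FPKM, and Actb at 1325 and 1242 FPKM. Genes of other cells were listed too, above all the macrophage gene Lyz2, at 376 FPKM in spleen and 24947 in lung, and Cd8b1 of CD8 T cells, at 19.9 and 74.8. Because these are bulk libraries, fewer cells that express a gene and less RNA of it per cell cannot be told apart.

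All 7 genes were well covered, with 638 to 7521 estimated reads per gene and library. Their levels summed to 1325 FPKM in spleen and to 1090.0 FPKM in lung. The median log2 ratio of the 7 was -0.50. Klf2, S1pr1, S1pr4, Cxcr5 and Cd69 were lower in lung Tregs, and Ccr7 and Gpr183 were higher with the deposited scaling. After rescaling to TPM Ccr7 and Gpr183 were lower too (Gpr183 within counting error), and with Cd3e set equal Cd69 was higher. In no gene did the difference reach 2-fold in either direction. Among the 12094 genes that reached 1 FPKM in at least 1 library, 15.5% were more than 2-fold lower in lung and 17.8% were more than 2-fold higher, and their median log2 ratio was 0.03. With 1.5-fold as the threshold, 3 of the 7 genes (S1pr4, Klf2 and Cxcr5) were lower, beside 25.4% of all genes, and 0 were higher, beside 27.4%. The counting interval excluded a ratio of 1 in all 7 genes. At these read numbers the intervals were narrow, spanning 1.07-fold to 1.23-fold. They were computed for these 7 genes only, so no share of all genes stands beside this count.

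**Figure D1:**
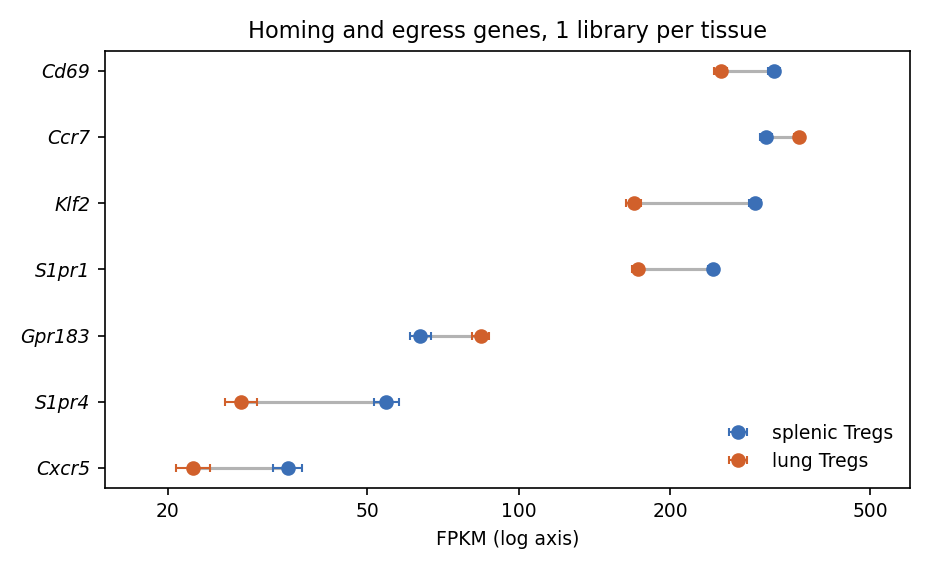
Level of each gene in the splenic and the lung library, in FPKM on a log axis; points are deposited values, bars are 95% Poisson intervals of the estimated reads, and grey lines join the libraries. Lung lies to the left of spleen for Cd69, Klf2, S1pr1, S1pr4 and Cxcr5 and to the right for Ccr7 and Gpr183.

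Klf2 was at 296 FPKM in spleen and 169.6 FPKM in lung. Its ratio was 0.573, with a counting interval of 0.548 to 0.599, which is a log2 ratio of -0.80. The gene lies on chromosome 8 of GRCm38 (mm10), from 72319033 to 72321656 on the plus strand, and its transcript has 3 exons. Klf2 was among the most abundant transcripts of the splenic library, at rank 320 of all symbols by FPKM, and at rank 719 in lung.

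S1pr4, an S1P receptor of haematopoietic cells, had the lowest ratio of the group. It was at 54.5 FPKM in spleen and 28.0 FPKM in lung, a ratio of 0.514 with an interval of 0.469 to 0.564. The interval on the log2 scale, -1.09 to -0.82 around -0.96, includes a 2-fold difference. S1pr4 is a gene of 1 exon on chromosome 10, from 81497747 to 81500132 on the minus strand. Among the 5692 genes at 10 FPKM or more in both libraries, 4.11% had a lower ratio than S1pr4 and 6.61% a lower ratio than Klf2. This share was 11.7% for Cxcr5, 16.6% for S1pr1, 23.7% for Cd69, 60.7% for Ccr7 and 72.5% for Gpr183.

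S1pr1, the receptor that T cells need to leave lymphoid organs, was the more abundant of these S1P receptors. It was at 244 FPKM in spleen and 172 FPKM in lung, with a ratio of 0.708 and an interval of 0.683 to 0.733. Within a library, S1pr1 was 4.47 times the level of S1pr4 in spleen and 6.15 times in lung. It lies on chromosome 3 from 115710433 to 115715072, on the minus strand. The other S1P receptors were far lower. S1pr2 was at 8.10 FPKM in spleen and 5.05 FPKM in lung, a ratio of 0.623. S1pr3 was at 0.970 FPKM and S1pr5 at 0.295 FPKM in spleen, and both were listed at 0 in lung, where 3 reads would have given 0.0599 and 0.111 FPKM. All 3 receptors at 1 FPKM or more (S1pr1, S1pr2 and S1pr4) were thus lower in lung, under each scaling tried. With Cd3e set equal, S1pr1 was lower only within counting error, at a log2 ratio of -0.02.

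Promoters were searched for CACCC boxes because KLF proteins bind them. Those of Klf2, S1pr4 and Gpr183 are shown because, of the 7 genes, only these 3 had a promoter in the RefSeq table (GRCm38.p6). Ccr7, S1pr1, Cxcr5 and Cd69 were not in it. Each sequence holds the 250 bases before the RefSeq start, 5′ to 3′ on the strand of the gene, and capitals mark each CACCC or its reverse complement GGGTG. The positions are chr8:72318812-72319061 on the plus strand for Klf2, chr10:81500138-81500387 on the minus strand for S1pr4 and chr14:121965194-121965443 on the minus strand for Gpr183.
Klf2: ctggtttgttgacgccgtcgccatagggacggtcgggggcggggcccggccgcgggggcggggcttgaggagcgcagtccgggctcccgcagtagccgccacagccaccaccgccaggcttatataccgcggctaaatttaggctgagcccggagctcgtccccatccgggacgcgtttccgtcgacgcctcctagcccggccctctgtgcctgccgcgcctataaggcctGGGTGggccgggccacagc
S1pr4: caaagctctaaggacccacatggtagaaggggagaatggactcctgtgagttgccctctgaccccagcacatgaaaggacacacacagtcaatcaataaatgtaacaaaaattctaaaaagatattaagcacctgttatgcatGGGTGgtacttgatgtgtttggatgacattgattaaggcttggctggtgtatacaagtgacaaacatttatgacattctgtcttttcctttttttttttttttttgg
Gpr183: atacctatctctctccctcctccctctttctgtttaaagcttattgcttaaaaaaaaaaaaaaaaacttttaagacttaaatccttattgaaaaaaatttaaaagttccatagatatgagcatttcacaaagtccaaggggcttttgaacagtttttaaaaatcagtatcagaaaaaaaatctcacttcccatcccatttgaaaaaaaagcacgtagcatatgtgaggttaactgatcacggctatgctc
The RefSeq starts are not those of the gene positions given for the 7 genes, which are from GENCODE. By these the last 29 bases of the Klf2 window and the last 2 of the Gpr183 window lie inside the gene, and the S1pr4 window ends 5 bases short of it. The Klf2 window held 1 match, which begins 19 bases before the RefSeq start and thus inside the GENCODE gene, and the S1pr4 window held 1 match, which begins 107 bases before it. The Gpr183 window held 0. Of all 32851 windows of the same length, 52.0% held at least 1 match, so its presence does not set these promoters apart. The Foxo site GTAAACA (or TGTTTAC), which 3.17% of all windows held, was found in none of the 3. The Klf2 window was 71.2% G and C, against 38.8% for S1pr4 and 32% for Gpr183.

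Cxcr5, the receptor for CXCL13 and a gene of follicular T cells and of B cells, was the weakest of the group. It was at 34.7 FPKM in spleen and 22.5 FPKM in lung, a ratio of 0.649 with an interval of 0.585 to 0.720. It lies on chromosome 9 from 44511787 to 44561877 on the minus strand, and 109 bases of its transcript of 2614 also belong to exons of Bcl9l on the other strand. Bcl9l was at 2.94 FPKM in spleen and 1.58 FPKM in lung. B cell genes were lower in lung as well. Of the 10 B cell markers, 9 were at 1 FPKM or more, all 9 were lower in lung and 5 were more than 2-fold lower, with a median log2 ratio of -1.07. With Cd3e set equal 8 of the 9 were lower and 1 was more than 2-fold lower, and with TPM all 9 were lower, 8 of them more than 2-fold. Their summed level was 288 FPKM in spleen and 146 FPKM in lung. The most abundant, Cd79b, was at 90.4 and 59.7 FPKM. The part of B cell RNA in the level of Cxcr5 was not tested.

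Cd69 had the highest level of the group in spleen, at 322 FPKM, and was at 252 FPKM in lung. The ratio was 0.783, with an interval of 0.752 to 0.816. It lies on chromosome 6, from 129267325 to 129275436 on the minus strand. Relative to S1pr1, whose protein it removes from the surface, Cd69 stood at 1.32 in spleen and 1.46 in lung. This ratio changed less between the tissues than either gene's own level with the deposited scaling. With Cd3e set equal it changed more than either (log2 ratios of -0.02 for S1pr1 and 0.12 for Cd69). The Cd69 transcript was thus not higher in lung with the deposited scaling, unlike the other genes of tissue residence at 1 FPKM or more given further on.

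Ccr7, the receptor that brings T cells into lymph nodes, was at 311 FPKM in spleen and 361 FPKM in lung. The ratio of 1.16 had a counting interval of 1.12 to 1.204. The gene lies on chromosome 11, from 99144196 to 99155077 on the minus strand. In lung Ccr7 was the most abundant of the 7 genes. Ccr7 is also a gene of migrating dendritic cells. Dendritic cell markers had a sum of 14.1 FPKM in spleen against 42.8 FPKM in lung over 8 genes, of which 3 of the 7 at 1 FPKM or more were lower in lung and 4 were higher. The most abundant of them in lung was Itgax, at 24.1 FPKM, also a gene of lung macrophages. Of the other dendritic cell markers, Zbtb46, a transcription factor of classical dendritic cells, was at 1.70 FPKM in spleen and 11.5 FPKM in lung, Fscn1 at 0.824 and 2.90, and Xcr1 at 1.52 and 2.36. Flt3 was at 1.43 and 0.172 FPKM and Siglech at 2.78 and 1.71, and Clec9a (0.642 FPKM in spleen) and Batf3 (3.83) were listed at 0 in lung. The part of dendritic cell RNA in the level of Ccr7 was not tested.

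Gpr183, the oxysterol receptor, had the highest ratio. It was at 63.7 FPKM in spleen and 84.0 FPKM in lung, a ratio of 1.32 with an interval of 1.24 to 1.40. It lies on chromosome 14, from 121952551 to 121965195 on the minus strand. It is inside the Ubac2 gene on the other strand, with which it shares 0 exonic bases, and Ubac2 went the other way, from 99.0 FPKM in spleen to 56.2 FPKM in lung. Gpr183 is expressed by macrophages and B cells as well as T cells. All 12 macrophage markers were higher in lung, 9 of them more than 2-fold, with a sum of 781 FPKM in spleen against 27538 FPKM in lung. When both libraries were rescaled to TPM, 10 of the 12 were higher. The part of macrophage RNA in the level of Gpr183 was not tested. S1pr1 and Klf2 are also genes of endothelial cells, whose 8 markers had a sum of 55.1 FPKM in spleen against 46.9 FPKM in lung. Most of it was Pecam1, at 54.8 and 31.7 FPKM, which T cells express too. Cdh5 was at 0 and 0.382 FPKM, Kdr at 0.0368 and 0, Tek at 0 and 0.235, and Emcn and Tie1 were listed at 0 in both. Cldn5 (0.160 and 6.54 FPKM) and Egfl7 (0.101 and 8.04 FPKM) were higher in lung. The part of endothelial RNA in the levels of S1pr1 and Klf2 was not tested.

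**Figure D2:**
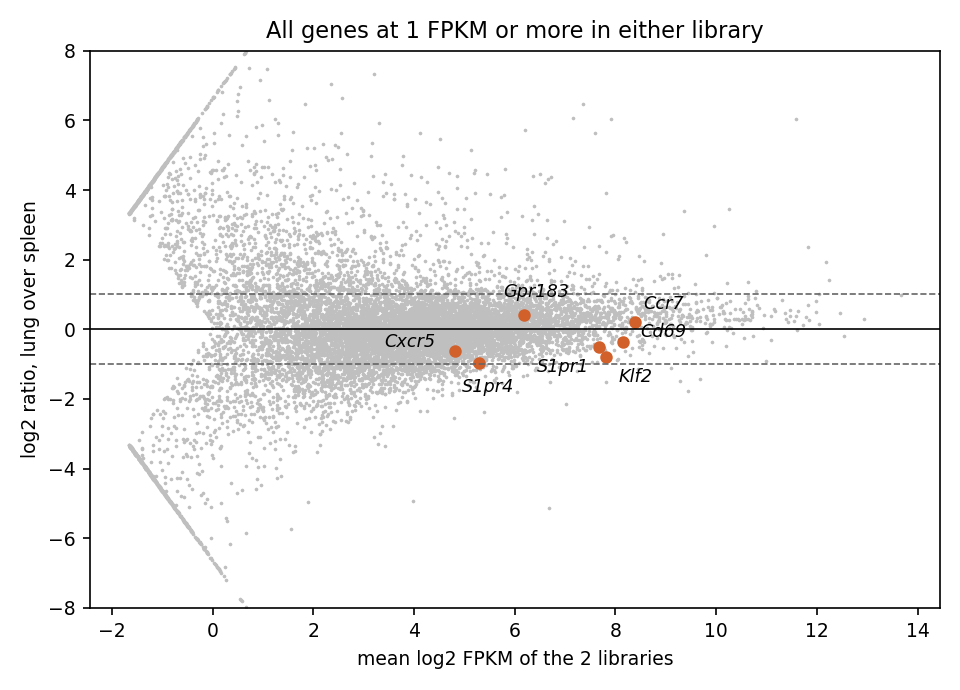
Log2 ratio of lung to spleen against the mean log2 FPKM of the libraries for the 12094 genes that reached 1 FPKM (grey), with the 7 genes in orange and dashed lines at 2-fold; 90 genes lie outside the axis. The 7 genes sit between the dashed lines, in the part of the plot with high levels, and S1pr4 is nearest to the lower line at -0.96.

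By level, the order in spleen was Cd69, Ccr7, Klf2, S1pr1, Gpr183, S1pr4 and Cxcr5. In lung it was Ccr7, Cd69, S1pr1, Klf2, Gpr183, S1pr4 and Cxcr5. Of the 21 pairs of these genes, 2 thus changed places, Ccr7 with Cd69 and S1pr1 with Klf2. In lung the counting intervals of S1pr1 (168 to 177 FPKM) and Klf2 (164 to 175 FPKM) overlapped, so their order there is not resolved. In spleen the intervals of Cd69 (313 to 331 FPKM) and Ccr7 (302 to 319 FPKM) overlapped, as did those of Ccr7 and Klf2 (288 to 304 FPKM). The intervals of the other neighbours did not overlap, and the spread between mice is unknown for all of them.

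Levels of 2 genes in the same library share any scaling, so the ratio between them cannot depend on it. Of the 21 pairs, 5 shifted by more than 2-fold between the tissues. Ccr7 was at 1.05 times the level of Klf2 in spleen and at 2.13 times in lung. Klf2 was at 4.64 times the level of Gpr183 in spleen and 2.02 times in lung. S1pr4 was at 0.856 times the level of Gpr183 in spleen and 0.334 times in lung, which was the largest shift, 2.56-fold. The other pairs over 2-fold were Ccr7 with S1pr4 and Gpr183 with Cxcr5. By contrast S1pr1 and Cxcr5 kept their relation, at 7.02 in spleen and 7.66 in lung. The shifts of Ccr7 and Gpr183 relative to Klf2 and S1pr4 thus hold whatever scaling is applied.

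The ratio of a single gene does depend on the scaling, and 6 others were tried. Rescaling to TPM lowered every log2 ratio by 0.43, and equal upper quartiles lowered it by 0.18. Setting the median ratio of 12 T cell genes to 1 raised the log2 ratios by 0.24, and setting Cd3e equal raised them by 0.48. Cd3e, with a log2 ratio of -0.48, was near the low end of those T cell genes (-0.55). Other CD3 chains were higher, Cd3d at -0.003 and Cd3g at 0.29. With TPM all 7 genes were lower in lung and S1pr4 (log2 ratio -1.39), Klf2 (-1.23) and Cxcr5 (-1.06) passed 2-fold, beside 25.9% of all genes. Ccr7 was then at -0.21 and Gpr183 at -0.03. With equal upper quartiles only S1pr4 (-1.14) passed 2-fold, beside 18.9% of all genes. With Cd3e set equal, S1pr1 was at -0.02 and Cd69 at 0.12, whereas Klf2 (-0.33), S1pr4 (-0.48) and Cxcr5 (-0.15) stayed lower. Klf2, S1pr4, S1pr1 and Cxcr5 were thus lower in lung under all 7 scalings, and Ccr7 and Gpr183 were higher under all but TPM. With Cd3e set equal, the direction of S1pr1 (-0.02) and Cxcr5 (-0.15) was not beyond counting error. The same held for Ccr7 with equal upper quartiles (0.04) and for Gpr183 with TPM (-0.03). Cd69 was lower under all but the scaling to Cd3e.

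**Figure D3:**
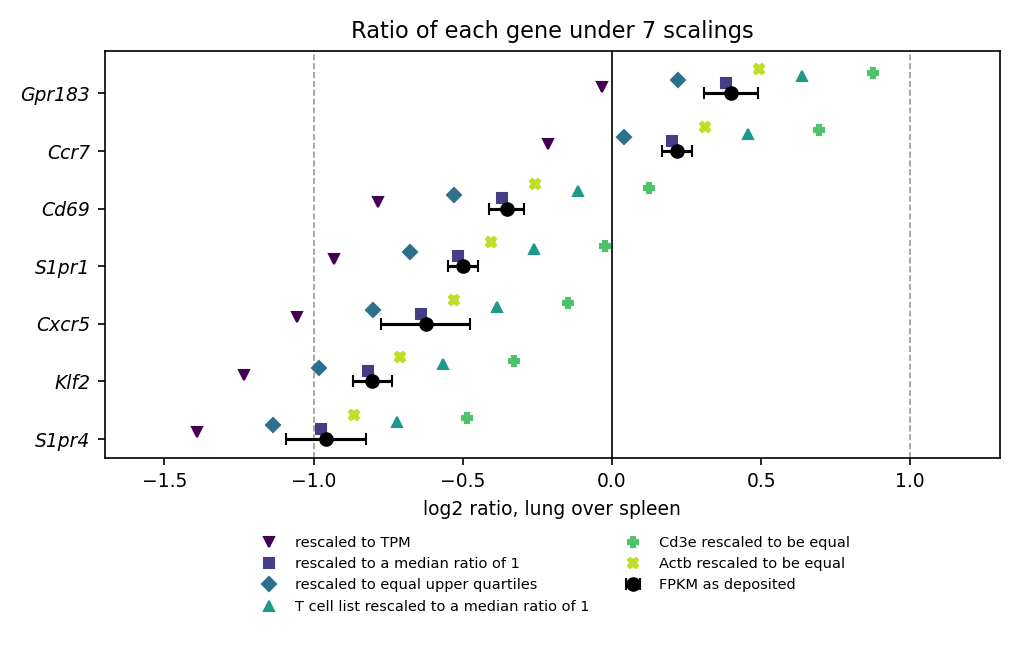
Log2 ratio of lung to spleen for the 7 genes with the deposited FPKM (black, with 95% counting intervals) and after 6 other scalings (coloured marks), with dashed lines at 2-fold. S1pr4, Klf2, Cxcr5 and S1pr1 stay below 0 throughout, though Cxcr5 and S1pr1 only within counting error for Cd3e. Each scaling moves all genes alike, from -0.43 for TPM to 0.48 for Cd3e.

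The T cell genes give a second frame for the 7 values. The 12 genes of that list, among them Cd3e, Cd2 and Lck, had log2 ratios from -0.55 to 0.31, with a median of -0.24. S1pr4, Klf2 and Cxcr5 lay below this range, Gpr183 lay above it, and S1pr1, Cd69 and Ccr7 lay within it. Divided by Cd3e in the same library, S1pr1 stood at 0.475 in spleen and 0.467 in lung, and Klf2 at 0.576 and 0.459. Ccr7 stood at 0.605 in spleen and 0.978 in lung.

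The programme of circulating T cells that FOXO1 and KLF2 maintain was listed as 13 genes, of which 12 were at 1 FPKM or more. Klf2, S1pr1 and Ccr7 are among these 12, so the list is not independent of the genes described above. In lung 9 of the 12 were lower, 2 of them more than 2-fold, and 0 were more than 2-fold higher. The median log2 ratio was -0.48, against 0.03 over all genes, and it was -0.0014 with Cd3e set equal. Foxo1, the transcription factor upstream of Klf2, was at 91.2 FPKM in spleen and 45.2 FPKM in lung, a ratio of 0.496. Tcf7, a factor of resting and memory T cells, was at 273 and 143 FPKM. Itgb7, an integrin chain of gut homing, was at 444 FPKM in spleen and 443 FPKM in lung. Il7r, the receptor for the survival cytokine IL-7, was among the 3 genes that were higher, at 107 and 182 FPKM.

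Among the 17 KLF genes, 12 were at 1 FPKM or more. Klf2 was the most abundant in both libraries, followed by Klf6 (185 FPKM in spleen and 167 in lung) and Klf3 (161 and 114). In lung 4 of the 12 were more than 2-fold lower and 1 was more than 2-fold higher, with a median log2 ratio of -0.61. With TPM 6 were lower and 1 was higher by more than 2-fold, and with Cd3e set equal 2 were lower and 2 were higher, with a median of -0.13. Klf7, at 27.2 FPKM in spleen and 13.5 FPKM in lung, was the only one of the 5 past 2-fold with the deposited scaling that was at 10 FPKM or more. Klf10, which is induced by TGF-β, was at 18.6 and 27.5 FPKM.

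The genes of tissue residence stood on the other side. Of 11 listed, 10 were at 1 FPKM or more, and Cd69 was the only one of them that was lower in lung (with Cd3e set equal, none was). Itga1, the listed gene under 1 FPKM, was lower in lung too. It was at 0.301 FPKM in spleen and 0.0147 FPKM in lung, on about 33.5 and 1.86 reads. Of the 10 genes at 1 FPKM or more, 7 were more than 2-fold higher, and the median log2 ratio of the 10 was 1.28. After rescaling to TPM these were 4. Cxcr6, a chemokine receptor of resident T cells, was at 22.0 FPKM in spleen and 147 FPKM in lung. Itgae (CD103, the partner of the β7 chain in binding E-cadherin) was at 10.8 and 55.4 FPKM, Klrg1 at 34.2 and 169, and Prdm1, which encodes BLIMP-1, at 5.79 and 16.03. Rgs1, which dampens signals of chemokine and S1P receptors, was at 394 FPKM in spleen and 742 FPKM in lung. The 7 markers of CD8 T and NK cells had a sum of 46.0 FPKM in spleen against 116 FPKM in lung. With the deposited scaling 5 of these markers were higher in lung and 2 were lower. The part of CD8 T, NK cell or macrophage RNA in the levels of the residence genes was not tested.

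The follicular list gave a mixed picture around Cxcr5. Of its 11 genes 3 were more than 2-fold lower and 3 were more than 2-fold higher in lung, with a median log2 ratio of 0.26 that became -0.17 with TPM. Pdcd1 (PD-1) was at 73.2 FPKM in spleen and 378 FPKM in lung. Icos was at 59.2 and 248 FPKM. Both are also genes of activated T cells outside follicles. Batf was at 117 and 244 FPKM. Bcl6, the factor that defines follicular T cells, was at 5.27 FPKM in spleen and 2.48 FPKM in lung. Ascl2 was at 1.72 FPKM in spleen and listed at 0 in lung.

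Genes that make, break down or carry S1P were listed as 9, of which 6 were at 1 FPKM or more. Sphk2, a kinase that makes S1P, was more than 2-fold lower in lung, at 14.0 FPKM in spleen and 4.47 FPKM in lung. Sphk1 was listed at 0 in both. The S1P lyase Sgpl1 (34.6 and 27.5 FPKM) and the S1P phosphatase Sgpp1 (45.3 and 33.3 FPKM) differed less. Plpp3, listed under its older symbol Ppap2b, was more than 2-fold higher, at 1.31 and 2.85 FPKM. The median log2 ratio of the 6 genes was -0.22 and turned to 0.26 with Cd3e set equal.

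Of the ligands and ligand-making enzymes for CCR7, CXCR5 and GPR183, 3 of 8 were at 1 FPKM or more, and all 3 were more than 2-fold higher in lung. Cxcl13, the ligand of CXCR5, was at 1.72 FPKM in spleen and 24.1 FPKM in lung. Hsd3b7, an enzyme that inactivates the oxysterol ligand of GPR183, was at 2.39 and 25.9 FPKM. Ccl19, a ligand of CCR7, was at 0.754 and 2.32 FPKM, on about 4.19 and 14.7 reads. Ch25h, which begins the synthesis of that oxysterol, was at 0.0843 FPKM in spleen and at 0 in lung, and Cyp7b1 was listed at 0 in both. Ccl21b and Ccl21c, near-identical copies of Ccl21a, were listed at 0 in both libraries, and reads of these copies cannot be assigned with certainty. The part of macrophage RNA, which was higher in lung, in these 3 genes was not tested.

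Most signalling parts that the receptors share were within 2-fold with the deposited scaling. Of 12 listed genes of coupling and desensitisation 11 were at 1 FPKM or more, 9 of them were within 2-fold, 2 were more than 2-fold higher and 0 were more than 2-fold lower. With TPM 2 were higher and 3 were lower by more than 2-fold, and with Cd3e set equal these counts were 4 and 0. Gnai2, the inhibitory G protein through which these receptors act, was at 329 FPKM in spleen and 318 FPKM in lung. Adrbk1, which encodes the kinase GRK2 that desensitises the S1P1 receptor, was at 69.6 and 45.3 FPKM, and Grk6 was at 142 and 85.8 FPKM. Rgs2, a regulator of G protein signalling, was more than 2-fold higher in lung, at 50.7 and 206 FPKM.

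**Figure D4:**
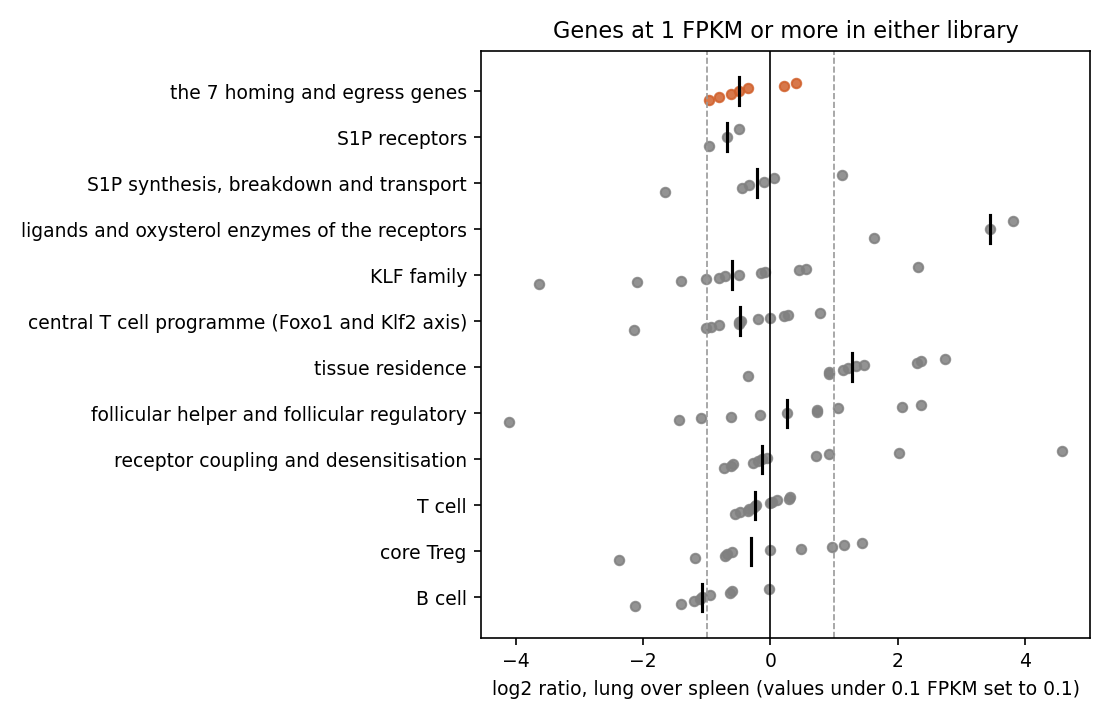
Log2 ratio of lung to spleen for the listed genes that reached 1 FPKM, by list; each point is a gene, black bars are medians and dashed lines mark 2-fold. The 7 genes (orange, median -0.50) and the FOXO1 and KLF2 list (-0.48) lie mostly to the left of 0. Klf2, S1pr1 and Ccr7 are in both of these. The residence list (1.28) lies to the right with Cd69 as its only gene below 0 (above 0 with Cd3e set equal). The B cell list lies at -1.07.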

How the data were processed

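GFP+CD4+ cells of spleen and lung gave 1 library each, grouped by their labels. Per the labels, SMART-Seq HT and Nextera XT kits were used, which keep no strand and add no molecular identifiers. The authors mapped the 75-base single-end reads to mm10 with TopHat2 2.1.1, Bowtie2 2.2.8 and SAMtools 0.1.18 and deposited FPKM from Cuffdiff 2.2.1. The annotation and any scaling between libraries are not given in the sources used here, so scalings were varied.

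From the FPKM, lung over spleen was computed with a floor of 0.1 FPKM, and genes past 2-fold were counted among those that reached 1 FPKM. Reads were estimated from lengths of GENCODE M21 transcripts with a RefSeq accession (94.5% of symbols). Effective lengths assumed fragments of 200 ± 80 nt, and none under 75. A single read was taken as the commonest product of FPKM and effective length among genes with 1 transcript length of at least 1500 nt (0.0964 FPKM at 1 kb in spleen, 0.0849 in lung). Of such genes with 1 to 10 reads, 74.6% in spleen and 76.9% in lung were within 0.1 of a whole number. Intervals of ratios are exact binomial and those of levels exact Poisson.

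The 7 genes and all lists were chosen with earlier results of these data known. Named were the 7 genes, the S1P receptors, Itgae, Foxp3, Cd4, Cd3e, Actb, up to 4 genes per pathway list and direction at 10 FPKM or more and past 2-fold, the most abundant gene of each marker list, and each gene's nearest neighbour. Others named (such as Tcf7, Il7r, Bcl6, Klf10, Cd8b1 and markers at or near 0) were chosen after their values were seen. Another gene planned for naming is not reported here. The steps were tested on simulated data. Calculations ran in Python 3.11.15 (scipy 1.17.1, pandas 2.3.3, numpy 2.4.6), and plots were drawn in matplotlib 3.10.9.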

Additional observations from a re-analysis of the deposited data

How the results depend on the processing

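No gene of the 7 was more than 2-fold lower with the deposited FPKM. The number was 3 with TPM, 1 with equal upper quartiles and 3 at 1.5-fold, and it was 0 under each other setting tried (a floor of 0.01 or 1 FPKM, a pseudocount of 0.1 or 1 FPKM, at least 3 estimated reads, a median ratio of 1, T cell genes, Cd3e or Actb equal, and 4-fold). None was more than 2-fold higher under any of these. The direction turned for Ccr7 (log2 ratio -0.21) and Gpr183 (-0.033, within counting error) with TPM and for Cd69 (0.12) with Cd3e equal. Each scaling shifts all ratios alike. Of 77 recomputed log2 ratios of the 7 genes, 44 stayed within the counting interval. Another 30 moved beyond it in the same direction and 3 turned. Floors, pseudocounts and the read minimum could hardly move genes at these levels, so the 44 overstate the stability. All 30 that moved and the 3 that turned came from scalings. Among the scalings, only a median ratio of 1 kept all 7 genes within their intervals. Actb set equal kept S1pr4 and Cxcr5, and no other scaling kept any. The share of all genes more than 2-fold lower, 15.5%, was 25.9% with TPM, 9.75% with Cd3e equal and 9.15% at 10 FPKM or more. The share more than 2-fold higher, 17.8%, was 29.4% with Cd3e equal, 11.6% at 10 FPKM or more and 11% with no filter. Counting error is small for the 7 genes (the widest interval of a ratio spans 1.23-fold), though PCR copies are not accounted for. It is larger for genes that rest on few reads, such as S1pr5 and Ccl19. No paired analysis was possible because each tissue has 1 library.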

Other observations

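The core Treg genes did not move as a block either. Of 10 genes, 2 were more than 2-fold higher in lung (Foxp3 and Ctla4, the latter from 221 to 601 FPKM) and 2 were more than 2-fold lower. With TPM 1 was higher (Foxp3 no longer passed 2-fold) and 5 were lower, and with Cd3e set equal 3 were higher and 1 was lower. The 2 lower with the deposited scaling were Gpr83, an orphan receptor of Tregs, at 95.6 and 18.4 FPKM, and Lrrc32, which encodes the TGF-β-docking protein GARP, at 69.4 and 30.4 FPKM. The list had a median log2 ratio of -0.30, and it was 0.17 with Cd3e set equal. The most abundant were Izumo1r in spleen (512 FPKM, against 318 FPKM in lung) and Tnfrsf18 in lung (919 FPKM, against 470.4 FPKM in spleen).

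The gene nearest to each of the 7 in its pair of levels was sought among the 10051 other genes at 1 FPKM or more in both libraries, by distance on the log2 scale. With 2 libraries this compares only 2 values per gene. The nearest were Snrpb for Ccr7 (306 FPKM in spleen and 361 in lung), Sash3 for S1pr1 (239 and 171), Nek7 for S1pr4 (53.3 and 27.2), Rps15a for Gpr183 (63.3 and 82.5), Sacm1l for Cxcr5 (34.1 and 22.5) and Wdr1 for Cd69 (319 and 243). For Klf2 it was Mir6516 (273 and 181 FPKM), a microRNA gene that rests on about 47.4 and 35.5 reads. None of the 7 was the nearest gene of another.

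Neutrophil markers were uneven between the libraries. S100a8 was at 276 FPKM in spleen and 804 FPKM in lung, whereas Ngp (36.4 FPKM) and Camp (21.7 FPKM), granule genes of immature neutrophils, were listed in spleen and at 0 in lung. No explanation was tested for this.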
